A study of Mus musculus with 8 samples.

Results

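PMC-303 is a line of peritoneal mast cells (PMCs) that arose spontaneously in culture, and its transcriptome was compared here with that of primary WT PMCs. The comparison holds the autosomal genes with a CPM (counts scaled to a common library size) of at least 1 in PMC-303 or in the primary mean, which were 12577 of the 55359 genes measured (50541 of them autosomal). RNA was sequenced from 8 untreated cultures. Besides PMC-303 and another such line called PMC-306, with 1 culture each, these were 6 primary WT cultures, 3 from female animals and 3 from males. All cultures were wild-type on a mixed C57BL/6x129/Sv background, and the labels give no sex for either line. Both lines were kept with less serum and less stem cell factor (SCF, the ligand of KIT) than the primary cultures, so that medium and transformation cannot be told apart. PMC-303 is 1 line represented by 1 library, and what is described here holds for this library.

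Mast cells store proteases, histamine and heparin in secretory granules and release them when IgE bound to its high-affinity receptor FcεRI meets antigen. Their survival and growth depend on the receptor tyrosine kinase KIT and, in culture, on IL-3. PMCs belong to the connective tissue type of mast cells, which is known for chymases, tryptases, carboxypeptidase A3 and the receptor MRGPRB2.

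The estimated counts summed to 23195483 in PMC-303 and to between 15918757 and 24180226 over all libraries. Library sizes for CPM were scaled by TMM (trimmed mean of M values), a factor that brings the bulk of genes to the same level. In PMC-303, 3 counts, the most that a count of 0 allows, are 0.123 CPM. A fold divides the CPM of PMC-303 by the primary mean, with 0.1 CPM added to both values, which understates the change of low genes. A gene is called if it differed at least 2-fold and if PMC-303 was higher or lower than each of the 6 primary cultures. Because PMC-303 has 1 library, its own spread is unknown, no test was made and no p is given. Intervals and limits from counts cover counting error only. In such bulk samples, fewer cells that express a gene and less RNA per cell cannot be told apart.

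By this rule 2333 genes were called, 18.5% of those compared, with 1310 higher (10.4%) and 1023 lower (8.13%) in PMC-303. At least 5-fold differences were found for 849 genes (6.75%), 499 of them higher (3.97%) and 350 lower (2.78%). PMC-303 lay outside the primary range at any fold for 66.5% of genes, so that leaving the range alone says little about a gene. Within the primary cultures, the highest and the lowest culture differed by a median of 1.37-fold per gene. Some of the genes named here lay close to the threshold. Psat1, an enzyme of serine synthesis, was called with 2.02-fold higher and was not called without the third female or the second male culture, while Kit and Fcer1a were outside the primary range but not called with 1.89-fold lower.

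**Figure D1:**
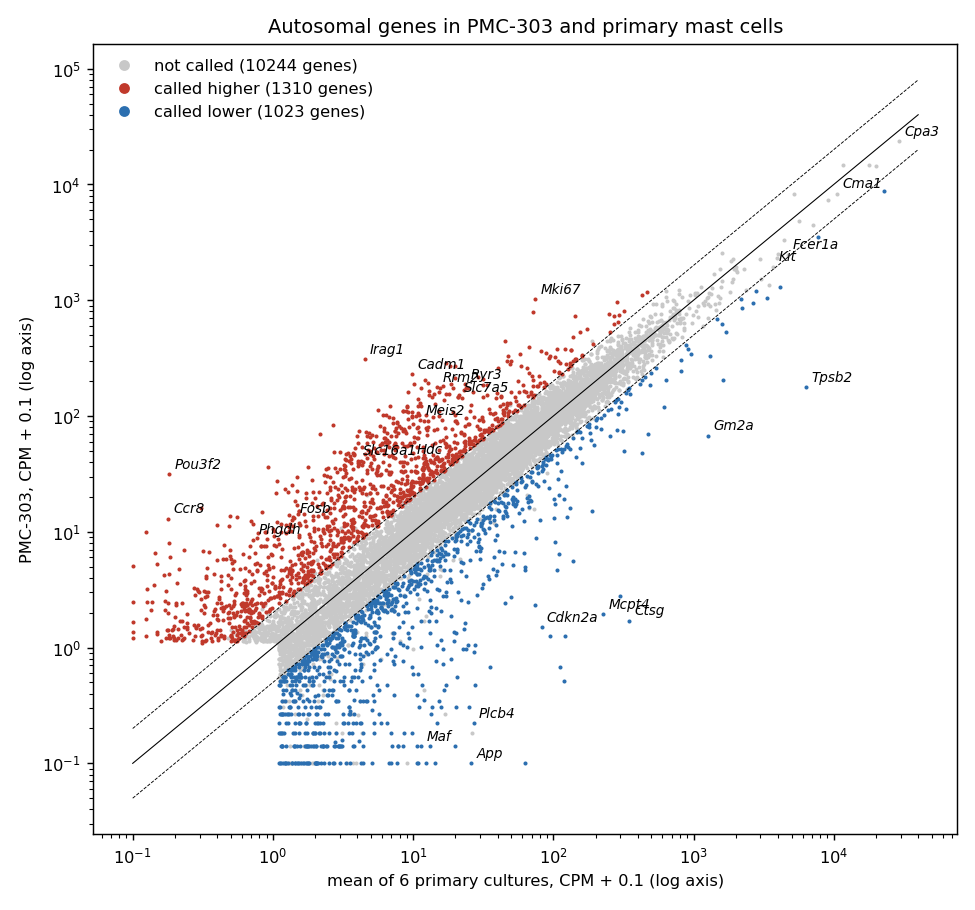
Each point is 1 of 12577 autosomal genes, with the primary mean (CPM + 0.1, 6 cultures) on the x axis and the CPM + 0.1 of PMC-303 on the y axis, both on log scales. The solid line marks equal levels and the dashed lines 2-fold differences. The 1310 genes called higher are red and the 1023 called lower blue, and Cpa3 and Cma1, the most abundant labelled genes, lie close to the solid line while Ctsg, Mcpt4 and Tpsb2 lie far below it.

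Of 12 mast cell markers, 6 were within the primary range in PMC-303 and 4 were called. Cpa3, Cma1, Ms4a2, Srgn, Gata2 and Mitf were within the primary range, Kit and Fcer1a were below it by less than 2-fold, Tpsb2, Mcpt4 and Mrgprb2 were called lower and Hdc was called higher. The mast cell protease carboxypeptidase A3 (Cpa3) had 23601 CPM in PMC-303, and its primary levels ran from 21762 to 38182 CPM (median 28735). The chymase gene Cma1 had 8332 CPM against 8066 to 15697 CPM (median 9752). For both genes PMC-303 stood among the lower primary cultures. The proteoglycan core protein serglycin (Srgn), on which proteases and heparin are packed, had 1949 CPM against a primary mean of 2005 ± 397 CPM (SD, n = 6). Among the lineage transcription factors, Gata2 had 582 CPM against 567 ± 38.5 CPM (SD, n = 6) and Mitf 227 CPM against 214 ± 14.7 CPM (SD, n = 6).

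Of 13 granule protease genes compared, 7 were called lower (53.8%, against 8.13% of all genes), all of them at least 5-fold. Another 2 were called higher (15.4%, against 10.4%) and 4 were not called. The median log2 fold of the list was -2.35, against 0.02 over all genes. Cathepsin G (Ctsg, chromosome 14, 56337338 to 56340031 of GRCm39), a serine protease of the chymase locus, had 1.61 CPM in PMC-303 from 39 counts. The primary cultures had between 163 and 528 CPM of Ctsg (median 320), so that PMC-303 had 0.464% of the primary mean and the groups were far apart. The chymase Mcpt4 had 1.85 CPM against 31.6 to 434 CPM (median 204), 0.818% of the primary mean. The tryptase gene Tpsb2 (chromosome 17, 25585170 to 25588079) had 177 CPM against 2857 to 10441 CPM (median 5626), a 35.6-fold difference. Mcpt2 was 22.7-fold lower (4.57 CPM against 106 ± 45.2 CPM, SD, n = 6), and the membrane-bound tryptase Tpsg1 6.42-fold lower (49.7 CPM against 320 ± 196 CPM, SD, n = 6). Granzyme B (Gzmb) had 120 CPM against 470 to 826 CPM (median 602). Tpsab1, a further tryptase, had 1.15 CPM and was within the primary range of 1.10 to 7.52 CPM. All of these levels lay below the primary mean, while Cpa3 and Cma1 kept about their level, so that the difference was not shared by all proteases.

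The cells also held more of a few protease genes. Cathepsin C (Ctsc), the dipeptidyl peptidase that activates granule serine proteases, had 564 CPM in PMC-303 against 118 to 378 CPM (median 136), a 3.22-fold difference. The chymase-like Cma2 had 30 CPM against 6.17 to 13.1 CPM (median 7.53). Related proteases of this locus and the tryptases share sequence, so that the counting could have split reads among them and single values are uncertain. PMC-306 also had low levels of Ctsg (14.9 CPM), Mcpt4 (0.0492 CPM) and Tpsb2 (20.9 CPM), and 992 CPM of Ctsc. Both lines are set against the same primary cultures, so that these are values side by side and not independent evidence.

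The PMC-303 library held transcripts of 4 Y-linked genes at between 0.977% and 1.55% of the mean of the male primary cultures, in all 102 counts. This share is larger than what PMC-303 had left of Ctsg and Mcpt4 and close to the 1.70% of Cdkn2a. When 1.25% of the male primary mean, the share of the 4 genes together, was subtracted from PMC-303, the log2 folds became lower. They were -11.76 for Ctsg, -11.15 for Mcpt4, -5.05 for Mcpt2, -5.95 for Tpsb2 and -7.48 for Cdkn2a. Subtraction can only lower PMC-303, so that a gene called lower could not lose its call by it. Nothing was left of Ctsg and Mcpt4, and values this close to 0 CPM depend on the 0.1 CPM added. How much of the remaining counts came from the source of the Y-linked transcripts was not tested.

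Of the genes for histamine and serotonin, 1 of 5 was called, in the upward direction (20%, against 10.4% of all genes). Histidine decarboxylase (Hdc), which makes histamine, had 42.4 CPM in PMC-303 against 6.19 to 18.1 CPM (median 7.87), a 4.42-fold difference above every primary culture. PMC-306 had 7.61 CPM, inside the primary range. Tryptophan hydroxylase 1 (Tph1), the rate-limiting enzyme of serotonin synthesis, had 4867 CPM against 4673 to 7711 CPM and was within the range. The vesicular monoamine transporter Slc18a2, which loads amines into granules, had 934 CPM against 1425 ± 176 CPM (SD, n = 6) and was not called. In the serglycin and heparin list, 2 of 21 genes were called higher, 1 of them, not named here, at least 5-fold, and 2 lower. These shares of 9.52% each were close to the 10.4% and 8.13% of all genes. Ext1, which elongates the heparan chain, had 26.2 CPM against 9.01 ± 3.05 CPM (SD, n = 6). Extl3 with 11.8 CPM against 30.4 ± 2.31 CPM (SD, n = 6) and Chst12 with 9.22 CPM against 22.5 ± 2.58 CPM (SD, n = 6) were called lower. Ndst2, the sulfotransferase that mast cells need for heparin, had 494 CPM and was within the primary range of 389 to 571 CPM. For eicosanoids, 0 of 13 genes were called, against 10.4% higher and 8.13% lower of all genes. The 5-lipoxygenase gene Alox5 had 1874 CPM against 1553 ± 150 CPM (SD, n = 6).

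**Figure D2:**
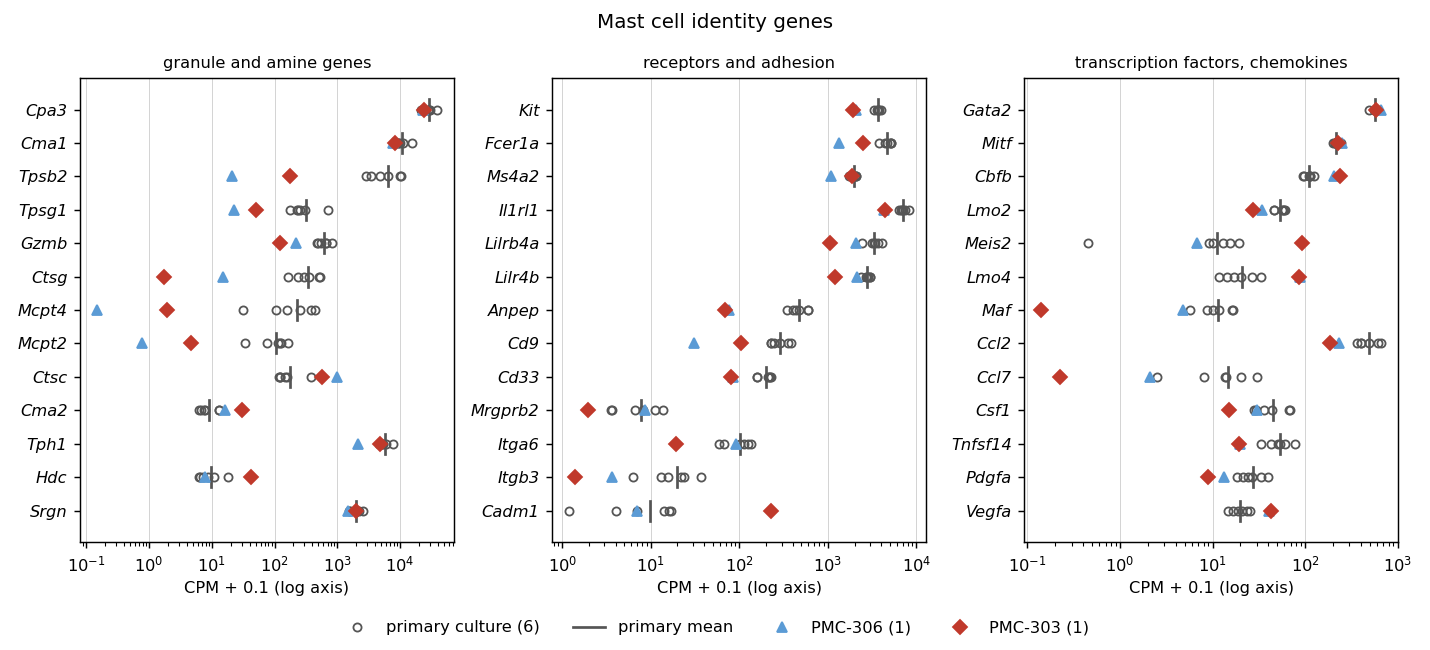
CPM + 0.1 on a log axis of mast cell identity genes in the 6 primary cultures (open circles, with their mean as a bar), in PMC-303 (red diamond) and in PMC-306 (blue triangle). The red diamond lies among the circles for Cpa3, Ms4a2, Gata2 and Mitf, far to the left of them for Ctsg, Mcpt4, Tpsb2, Maf and Ccl7, and to the right of them for Ctsc, Hdc, Meis2, Lmo4 and Cadm1.

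Surface receptors of mast cells were lower or not called in PMC-303. Of 24 compared, 8 were called lower (33.3%, against 8.13% of all genes) and 0 higher (against 10.4%), and the median log2 fold was -0.82. The largest difference among those with at least 10 CPM was that of Anpep, which encodes CD13, with 69.6 CPM against 346 to 591 CPM (median 458). The inhibitory receptor Lilrb4a and its near copy Lilr4b had 1044 and 1190 CPM against means of 3346 ± 557 and 2779 ± 234 CPM (SD, n = 6). The counting could have split reads between these near copies. The tetraspanin Cd9 had 105 CPM against 287 ± 67.3 CPM (SD, n = 6), and the inhibitory sialic acid receptor Cd33 79.5 CPM against 200 ± 31.9 CPM (SD, n = 6). Mrgprb2, the receptor for cationic mast cell activators, was low in all cultures, with 1.85 CPM in PMC-303 and 3.49 to 13.6 CPM in the primary cultures. PMC-306 had 8.45 CPM of it.

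The 2 receptors that define the lineage differed less than 2-fold. Kit had 1946 CPM in PMC-303 against 3359 to 3932 CPM (median 3700), and Fcer1a, the IgE-binding chain of FcεRI, 2480 CPM against 3789 to 5153 CPM (median 4839). Each was at 53% of its primary mean and below every primary culture. Ms4a2, the beta chain of FcεRI, had 1865 CPM against 1717 to 2089 CPM and was within the range. The IL-33 receptor Il1rl1 (ST2) had 4444 CPM against 7091 ± 655 CPM (SD, n = 6), 62.7% of the primary mean.

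Transcription factors of the lineage list differed in both directions, with a median log2 fold of -0.01. Of 34 compared, 5 were called higher (14.7%, against 10.4% of all genes) and 4 lower (11.8%, against 8.13%). Meis2 (chromosome 2, 115693062 to 115896341), a homeobox factor, had 92.4 CPM in PMC-303. The primary cultures had 0.351 to 19.1 CPM of Meis2 (median 11.4) and PMC-306 6.68 CPM, so that PMC-303 alone stood high. Lmo4, a LIM domain cofactor of GATA complexes, had 86.3 CPM against 11.7 to 33.5 CPM (median 18.6), and the RUNX partner Cbfb 240 CPM against 109 ± 10.6 CPM (SD, n = 6). Maf, a basic leucine zipper factor, had 1 count in PMC-303, while the primary cultures had 5.56 to 16.4 CPM (median 10.9). The ratio was 0.362% of the primary mean with a 95% Poisson interval from 0.00917% to 2.02%. Lmo2 was at the threshold, with 27.0 CPM against 54.1 ± 6.39 CPM (SD, n = 6) and was not called when the second female, the third female, the first male or the third male culture was left out.

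Of 17 cytokine and chemokine genes compared, 7 were called lower (41.2%, against 8.13% of all genes) and 1 higher (5.88%, against 10.4%). The other 9 were not called, and the median log2 fold was -0.58. The monocyte chemokine Ccl2 had 186 CPM against 364 to 657 CPM (median 443). Ccl7 had 3 counts in PMC-303, which is 0.840% of the primary mean with a 95% Poisson interval from 0.173% to 2.45%, and 2.43 to 30.3 CPM in the primary cultures. Csf1, the macrophage growth factor, had 14.9 CPM against 45.3 ± 18.1 CPM (SD, n = 6), Tnfsf14 19.3 CPM against 53.1 ± 15.2 CPM (SD, n = 6) and Pdgfa 8.85 CPM against 27.1 ± 7.88 CPM (SD, n = 6). The angiogenic factor Vegfa was the member called higher, with 42.9 CPM against 14.5 to 25.1 CPM (median 19.8).

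Of 21 integrin and adhesion genes compared, 3 were called higher (14.3%, against 10.4% of all genes) and 4 lower (19%, against 8.13%). The other 14 were not called, and the median log2 fold was 0.07. Cadm1 (chromosome 9, 47441471 to 47773576), which mediates adhesion of mast cells to other cells, had 228 CPM in PMC-303 against 1.10 to 16.9 CPM (median 10.4). The difference was 23.1-fold, and PMC-306 had 6.87 CPM, within the primary range. The glycosylphosphatidylinositol-anchored Cd24a had 27.6 CPM against 0.132 to 2.86 CPM, and 236 CPM in PMC-306, and its log2 fold of 4.70 was 5.32 without the first male culture. The 4 members called lower were integrin chains, and 1 of them, Itga4, had 0 counts in PMC-303 against 0.367 to 2.45 CPM. Itgb3 had 1.28 CPM against 6.17 to 36.7 CPM (median 18.8), Itga6 19.2 CPM against 59.5 to 137 CPM (median 108) and the leukocyte integrin chain Itgb2 7.08 CPM against 18.5 to 56.7 CPM (median 27.1). PMC-306 had 91.6 CPM of Itga6 and 42.3 CPM of Itgb2, both within the primary range. In the machinery of exocytosis, 2 of 24 genes were higher (8.33%) and 1 lower (4.17%), below the 10.4% and 8.13% of all genes. Among them were the synaptotagmin Syt9 with 36.3 CPM against 0.497 to 1.54 CPM and the GTPase Rab37 with 139 CPM against 281 ± 19.4 CPM (SD, n = 6).

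Over the identity lists together, 16 of 172 genes were called higher and 33 lower, which is 9.30% and 19.2%, against 10.4% and 8.13% of all genes. Lists of markers for other cell types were measured as well, and in most of them 1 gene held nearly all of the signal in PMC-303. Among 12 macrophage genes the summed level was 7.16 CPM in PMC-303 and 7.49 to 68.8 CPM in the primary cultures, and C1qa, C1qb, C1qc and Mrc1 were at 0 in PMC-303, where Cd68 (115 counts) was the most abundant. Lyz2 and Adgre1 were called lower, with 0.247 and 2.10 CPM, and without the second female culture their log2 folds were -2.96 and -1.91 instead of -3.92 and -2.73. Adgre1 had 46.4 CPM in the second female and 25.3 CPM in the third male culture but at most 4.35 CPM in the other 4, and against the median of the primary cultures its log2 fold was -0.95 and it was not called. The B cell list summed to 21.4 CPM against 0.682 to 12.6 CPM, all of it from Ighm, while Cd79a and Ms4a1 were at 0. The log2 fold of Ighm was 2.31, and 3.00 without the first female culture. The T and NK cell list summed to 2.02 CPM against 0.781 to 3.99 CPM with Cd3d, Cd3e and Cd3g at 0 and Ncr1 at 48 counts, and the neutrophil list to 1.28 CPM against 0.124 to 0.633 CPM with Elane and S100a8 at 0 and Mmp8 at 30 counts. The erythroid and megakaryocyte list summed to 29.3 CPM against 15.5 to 49.0 CPM, mostly from Gp1ba (671 counts), the mesothelial and fibroblast list to 0.123 CPM against 0.0459 to 0.315 CPM, and the eosinophil list to 0 in PMC-303. The part of other cells in the differences reported here was not tested.

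**Figure D3:**
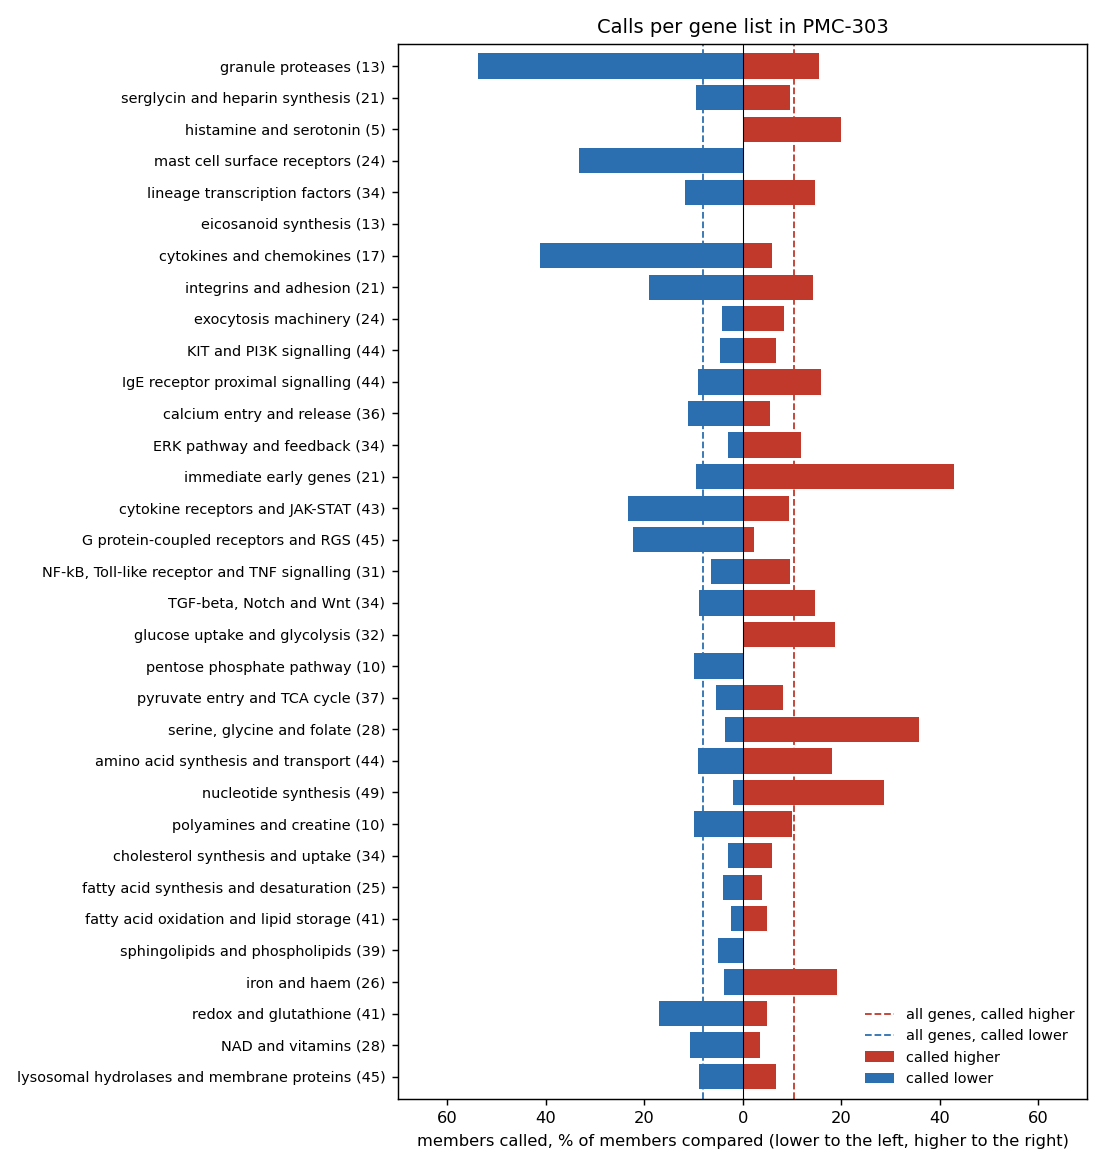
Bars show the percentage of compared members of each gene list that were called lower (blue, to the left) or higher (red, to the right) in PMC-303, with the number compared in parentheses. Dashed lines mark the same shares over all genes, 8.13% lower and 10.4% higher. Granule proteases (53.8%), cytokines and chemokines (41.2%) and surface receptors (33.3%) have the longest bars to the left, and immediate early genes (42.9%), serine, glycine and folate (35.7%) and nucleotide synthesis (28.6%) the longest to the right.

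Signalling genes were called in equal number in both directions, 38 of 332 each, which is 11.4% and 11.4% against 10.4% and 8.13% of all genes. Of 44 genes of signalling next to FcεRI, 7 were called higher (15.9%) and 4 lower (9.09%), with a median log2 fold of -0.18. The kinase Lyn, the adaptor Lat and the phospholipase Plcg2 were within the primary range, with 254, 232 and 152 CPM. Syk, which relays the signal from FcεRI, had 123 CPM against 193 ± 8.57 CPM (SD, n = 6), below every primary culture but under 2-fold. The genes called lower included Clnk, an adaptor related to SLP-76, with 2.31 CPM against 14.3 to 75.9 CPM (median 46.8), while PMC-306 had 59.8 CPM. Card9, which links receptors to NF-κB, had 0.370 CPM against 2.99 to 22.2 CPM (median 10.5). Skap2 had 36.6 CPM against 78.1 ± 6.46 CPM (SD, n = 6), and Ubash3a, a suppressor of receptor signalling, 5.35 CPM against 7.03 to 35.2 CPM.

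Several of the higher members are best known from T cells. The adaptor Skap1 had 109 CPM against 16.7 to 32.0 CPM (median 24.2). Rasgrp1, an activator of RAS, had 56.2 CPM against 8.52 to 19.9 CPM (median 13.7), and the protein kinase C isoform Prkcq 77.8 CPM against 7.64 to 25.6 CPM (median 20.1). Each was more than 4-fold above the primary mean and above every primary culture. PMC-306 had 84.8, 62.2 and 39.2 CPM of these genes, whereas Cd3d, Cd3e and Cd3g were at 0 in PMC-303.

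In KIT and PI3K signalling, 3 of 44 genes were called higher (6.82%) and 2 lower (4.55%), with a median log2 fold of -0.12. Both shares were below the 10.4% and 8.13% of all genes. The catalytic subunit Pik3cb (chromosome 9, 98918704 to 99022674) had 34.6 CPM in PMC-303, and in the primary cultures 0.735 to 7.27 CPM (median 2.64). It was 10.8-fold above the primary mean, and PMC-306 had 1.66 CPM, within the range. Pik3r6, a regulatory subunit of PI3Kγ, had 183 CPM against 52.1 to 147 CPM (median 64.3). The adaptor Pik3ap1 (BCAP) had 56.5 CPM against 133 to 273 CPM (median 188).

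Among genes of calcium release and entry, 2 of 36 were called higher (5.56%, against 10.4% of all genes) and 4 lower (11.1%, against 8.13%). The phospholipase Plcb4 (chromosome 2, 135500926 to 135856870), which acts downstream of G proteins, had 3 counts in PMC-303, and the primary cultures had 16.8 to 54.3 CPM (median 23.4). This is 0.459% of the primary mean with a 95% Poisson interval from 0.0948% to 1.34%. The cation channel Trpm2 had 20.9 CPM against 91.8 to 128 CPM (median 110), the IP3 receptor Itpr1 55.5 CPM against 124 ± 9.86 CPM (SD, n = 6) and the ATP-gated channel P2rx4 218 CPM against 453 ± 28.3 CPM (SD, n = 6). In the other direction, the ryanodine receptor Ryr3 (chromosome 2, 112461699 to 113047441), a calcium release channel, had 189 CPM against 8.22 to 45.9 CPM (median 17.1). PMC-306 had 234 CPM of Ryr3. The plasma membrane calcium pump Atp2b4 had 21.8 CPM against 0.184 to 2.64 CPM (median 1.18). Stim1, the calcium sensor of the endoplasmic reticulum, had 166 CPM and was within the primary range of 139 to 172 CPM. The channel subunit Orai1 had 11.2 CPM against 16.5 to 27.2 CPM and was not called.

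Immediate early genes, which growth factor signals switch on through ERK and serum response factor, were often called higher. Of 21 compared, 9 were called higher (42.9%, against 10.4% of all genes) and 2 lower (9.52%, against 8.13%), and the median log2 fold was 0.45. The transcription factor gene Egr1 had 80.0 CPM in PMC-303 against 1.31 to 21.3 CPM (median 14.5), Ier2 125 CPM against 20.5 to 31.5 CPM (median 26.1) and the AP-1 subunit Junb 130 CPM against 40.8 to 54.0 CPM (median 50.2). For each of these PMC-303 stood above every primary culture. Fosb had 13 CPM against 0.367 to 2.43 CPM, Fos 9.96 CPM against 0.157 to 2.89 CPM, Egr2 4.65 CPM against 0.105 to 0.746 CPM and Egr3 6.22 CPM against 0.0879 to 1.80 CPM. These last 4 rested on between 113 and 316 counts in PMC-303. Nab2, a corepressor of EGR proteins and itself an EGR target, had 18.4 CPM against 3.15 ± 0.851 CPM (SD, n = 6). PMC-306 was higher still for all of them, with 257 CPM of Egr1 and 139 CPM of Egr3. Klf2, a zinc finger factor, was called lower with 4.45 CPM against 10.3 to 44.7 CPM. The MYC gene itself (Myc) had 45.1 CPM and was within the primary range of 43.0 to 52.3 CPM.

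Sequence before the start of 3 of these genes is shown because serum response factor is known to bind a motif called the CArG box. The 500 bases before the canonical start were read from GRCm39 and searched on both strands for the CArG box, which was chosen with the results known. It was present in 4 of 9 immediate early genes called higher, against 2.47% of the 10668 protein-coding genes compared and 3.10% of the 1129 protein-coding genes called higher. The stretches are given on the strand of the gene, with the match in capitals, and lie before the start of Fosb (minus strand, chr7:19044208-19044267), Fos (plus strand, chr12:85520330-85520389) and Egr2 (plus strand, chr10:67373602-67373661).
Fosb: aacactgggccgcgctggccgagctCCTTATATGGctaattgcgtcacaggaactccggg
Fos: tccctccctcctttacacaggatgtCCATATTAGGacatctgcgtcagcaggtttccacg
Egr2: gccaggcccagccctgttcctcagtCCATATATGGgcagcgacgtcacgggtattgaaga
A match describes the letters of the sequence and does not show that a factor was bound.

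In the ERK pathway itself and its feedback genes, the median log2 fold was 0.09. Of 34 compared, 4 were called higher (11.8%, against 10.4% of all genes) and 1 lower (2.94%, against 8.13%). Etv4, an ETS factor induced by ERK, had 10 CPM against 3.34 ± 1.04 CPM (SD, n = 6), and the scaffold Ksr1 35.8 CPM against 76.2 ± 12.4 CPM (SD, n = 6).

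**Figure D4:**
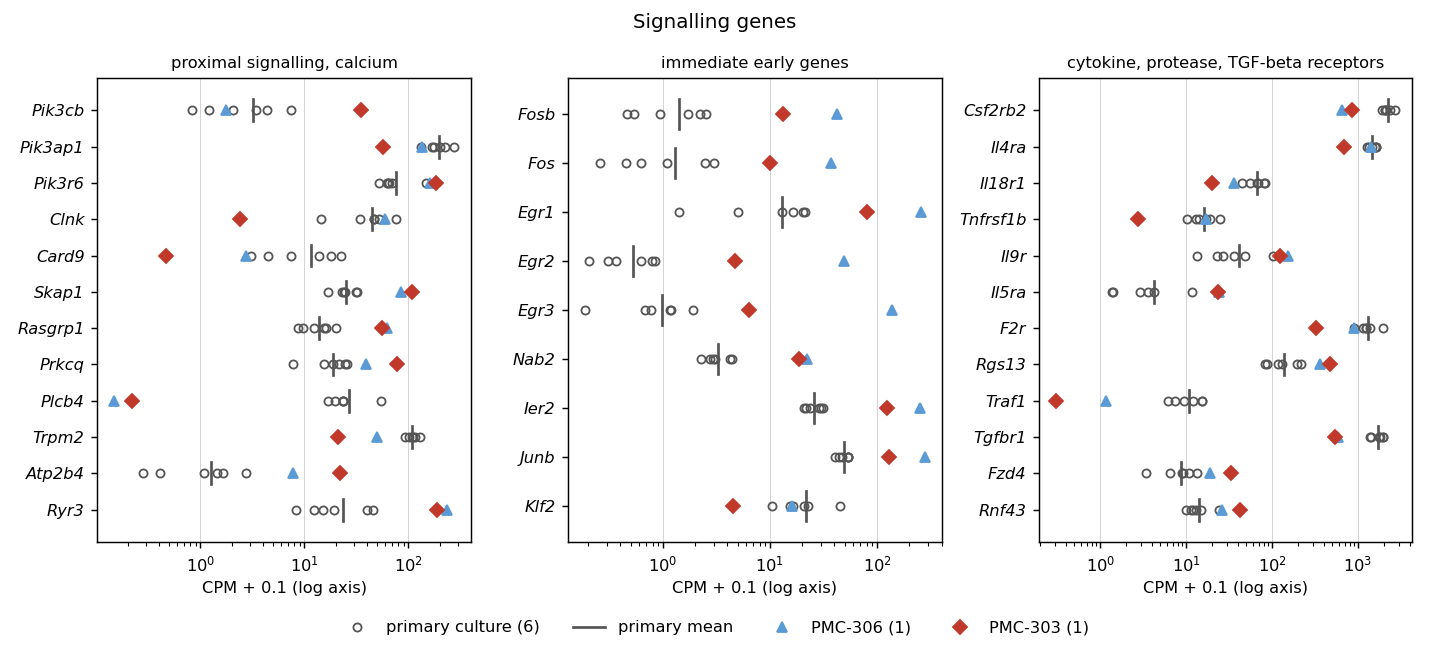
CPM + 0.1 on a log axis of signalling genes in the 6 primary cultures (open circles, mean as a bar), PMC-303 (red diamond) and PMC-306 (blue triangle). The red diamond is to the right of all circles for the 8 immediate early genes Fosb, Fos, Egr1, Egr2, Egr3, Nab2, Ier2 and Junb, and to the left of all circles for Clnk, Card9, Plcb4, Trpm2, Csf2rb2, F2r, Traf1 and Tgfbr1.

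Genes of cytokine receptors and of the JAK-STAT pathway, taken as 1 list, were more often lower than higher, with a median log2 fold of -0.19. Of 43 compared, 10 were called lower (23.3%, against 8.13% of all genes) and 4 higher (9.3%, against 10.4%). Csf2rb2, the IL-3-specific beta chain, had 854 CPM against 1910 to 2728 CPM (median 2099), and its near copy Csf2rb, the common beta chain of the IL-3, IL-5 and GM-CSF receptors, 2295 CPM against 3906 ± 349 CPM (SD, n = 6). Because the counting could have split reads between them, the single values are uncertain. The IL-4 receptor gene Il4ra had 684 CPM against 1257 to 1606 CPM (median 1511). The IL-18 receptor gene Il18r1 had 20.1 CPM against 66.4 ± 14.9 CPM (SD, n = 6), Il10ra 115 CPM against 256 ± 26.9 CPM (SD, n = 6), and the TNF receptor Tnfrsf1b 2.68 CPM against 10.2 to 24.7 CPM. Cish, a feedback inhibitor induced by STAT5, had 42.3 CPM against 89.3 ± 22.4 CPM (SD, n = 6). Il9r, with 122 CPM against 13.4 to 102 CPM (median 31.3), and Il5ra, with 23.1 CPM against 1.27 to 11.7 CPM (median 3.18), were called higher. The log2 fold of Il5ra was 2.46, and 3.10 without the third female culture, while Cish was not called without the first female culture, with a log2 fold of -0.96.

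Genes of G protein-coupled receptors and their regulators had a median log2 fold of -0.30. Of 45 compared, 10 were called lower (22.2%, against 8.13% of all genes) and 1 higher (2.22%, against 10.4%). The thrombin receptor F2r had 327 CPM against 898 to 1979 CPM (median 1230), and the leukotriene B4 receptor Ltb4r2 7.70 CPM against 9.76 to 38.6 CPM. Rgs13, which limits G protein signals in mast cells, was the member called higher, with 478 CPM against 82.6 to 215 CPM (median 124). In the TGF-β, Notch and Wnt list, 5 of 34 genes were higher (14.7%, against 10.4% of all genes) and 3 lower (8.82%, against 8.13%). The TGF-β receptor Tgfbr1 had 536 CPM against 1373 to 1958 CPM (median 1795). The Wnt receptor Fzd4 had 33.5 CPM against 3.29 to 13.2 CPM, and Rnf43, a ubiquitin ligase that removes Wnt receptors, 42.5 CPM against 9.75 to 24.3 CPM. In the NF-κB and Toll-like receptor list 3 of 31 genes were higher (9.68%) and 2 lower (6.45%), below the 10.4% and 8.13% of all genes. Among them were the adaptor Traf1 with 0.206 CPM against 5.98 to 15.3 CPM and the inhibitory kinase Irak3 with 14.5 CPM against 3.12 to 6.14 CPM.

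Metabolic genes were more often higher than lower in PMC-303, with 58 of 485 called higher (12%) and 30 lower (6.19%), against 10.4% and 8.13% of all genes, and the median log2 fold was 0.13. The shares over the whole class were thus close to those of all genes, and the calls were concentrated in a few pathways.

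In glucose uptake and glycolysis, 6 of 32 genes were called higher (18.8%, against 10.4% of all genes) and 0 lower (against 8.13%). The median log2 fold was 0.51. The lactate transporter Slc16a1 (MCT1, chromosome 3, 104545811 to 104565780) had 41.0 CPM in PMC-303 against 2.98 to 4.75 CPM (median 4.02), a 10.2-fold difference in a gene on which the primary cultures differed little. Slc16a3 (MCT4), the exporter of glycolytic cells, had 98.0 CPM against 26.5 to 33.1 CPM (median 31.3). The enzymes enolase 1 (Eno1) with 529 CPM against 98.1 to 185 CPM, triosephosphate isomerase (Tpi1) with 376 CPM against 110 to 129 CPM and phosphofructokinase (Pfkl) with 105 CPM against 34.9 to 38.1 CPM were higher as well. The glucose transporter Slc2a1 (71.7 CPM against 34.0 to 42.3 CPM), hexokinase 2 (Hk2, 83.3 CPM against 41.7 to 70.4 CPM) and lactate dehydrogenase (Ldha, 1067 CPM against 597 to 698 CPM) were above every primary culture by less than 2-fold. Pyruvate kinase (Pkm) had 1044 CPM and lay below the primary range of 1120 to 1586 CPM, also by less than 2-fold. The list of pyruvate entry and the tricarboxylic acid cycle had a median log2 fold of 0.43. In it 3 of 37 genes were higher (8.11%) and 2 lower (5.41%), below the shares of all genes. The higher ones were Idh2 (84.3 CPM against 36.5 ± 4.87 CPM, SD, n = 6), Pdk1 (27.1 CPM against 10.9 ± 3.30 CPM, SD, n = 6) and Fh1 (67.5 CPM against 31.1 ± 2.33 CPM, SD, n = 6).

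Serine, glycine and folate metabolism, which supplies carbon units for nucleotides, had a median log2 fold of 0.39. Of 28 genes compared, 10 were called higher (35.7%, against 10.4% of all genes) and 1 lower (3.57%, against 8.13%). The mitochondrial enzymes Mthfd1l with 33.1 CPM against 6.78 to 9.54 CPM, Mthfd2 with 105 CPM against 26.1 to 45.0 CPM and Shmt2 with 66.1 CPM against 24.4 to 31.1 CPM were higher, as were the cytosolic Shmt1 with 17.8 CPM and Mthfd1 with 58.8 CPM. Phgdh, the first enzyme of serine synthesis, had 8.41 CPM against 0.373 to 0.839 CPM (median 0.643), and 43.0 CPM in PMC-306. For all of these genes PMC-303 was above every primary culture.

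Nucleotide synthesis had 14 of 49 genes called higher (28.6%, against 10.4% of all genes) and 1 lower (2.04%, against 8.13%), with a median log2 fold of 0.51. The 2 subunits of ribonucleotide reductase, Rrm2 with 176 CPM against 6.56 to 18.4 CPM and Rrm1 with 301 CPM against 32.0 to 54.4 CPM, make deoxynucleotides. Thymidine kinase (Tk1) had 53.6 CPM against 1.99 to 5.82 CPM, the dUTPase Dut 66.1 CPM against 7.97 to 12.2 CPM, thymidylate synthase (Tyms) 75.1 CPM against 10.9 to 15.7 CPM and deoxycytidine kinase (Dck) 44.1 CPM against 8.44 to 11.9 CPM. These genes are known to be expressed in S phase, and cell cycle genes were higher too. Of 49 cell cycle genes of the cyclin and RB-E2F list, 28 were called higher (57.1%, against 10.4% of all genes) and 3 lower (6.12%, against 8.13%). The proliferation marker Mki67 had 1015 CPM against 28.6 to 106 CPM. How far the metabolic genes followed the share of cycling cells was not tested. The letters GGCGGGAA, in the form of an E2F motif, were searched on both strands in the 500 bases before the start. They were found in 3 of 14 nucleotide synthesis genes called higher (21.4%). Of the serine, glycine and folate genes called higher, 1 of 10 had them (10%). The shares were 4.63% of all promoters and 7.17% of those called higher. The stretch before Rrm1 (plus strand, chr7:102090810-102090867) is given with the match in capitals, which reads on the opposite strand.
Rrm1: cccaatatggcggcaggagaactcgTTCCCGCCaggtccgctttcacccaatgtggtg

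For amino acids, 8 of 44 genes were called higher (18.2%, against 10.4% of all genes) and 4 lower (9.09%, against 8.13%), with a median log2 fold of 0.13. Slc7a5 (LAT1, chromosome 8, 122607884 to 122634433), the transporter of large neutral amino acids, had 144 CPM in PMC-303 against 10.6 to 30.5 CPM (median 20.6), while the related Slc7a8 (LAT2) had 44.1 CPM against 107 to 173 CPM (median 143). Targets of the amino acid response factor ATF4 were among the higher genes, with 40.7 CPM of asparagine synthetase (Asns) against 15.3 to 22.6 CPM and 10.2 CPM of the pseudokinase Trib3 against 1.33 to 3.65 CPM. Chac1, which breaks down glutathione, had 56 counts in PMC-303 and 15 counts over all primary cultures, a ratio of 18.2 with a 95% interval from 10.1 to 34.6. The letters TGATGNAA, the form in which ATF4 sites are usually written, were found on either strand in 3 of 8 amino acid genes called higher, in 0 of 10 serine, glycine and folate genes called higher and in 4.96% of all promoters. With the match were Pycr1, at 1.77 CPM against 0.307 to 0.966 CPM, and Gpt2, at 6.54 CPM against 1.79 to 3.86 CPM. Neither was called with an offset of 1 CPM, where the log2 folds were 0.68 and 0.93. The stretches before the proline enzyme Pycr1 (minus strand, chr11:120534645-120534702) and the alanine transaminase Gpt2 (plus strand, chr8:86218611-86218668) show the match in capitals.
Pycr1: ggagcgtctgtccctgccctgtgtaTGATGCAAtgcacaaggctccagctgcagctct
Gpt2: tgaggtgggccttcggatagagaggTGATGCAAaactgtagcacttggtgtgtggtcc

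Lipid metabolism was called at few genes, in each list below the 10.4% higher and 8.13% lower of all genes. In cholesterol synthesis and uptake 2 of 34 genes were higher and 1 lower, with Fdps at 180 CPM against 52.0 to 125 CPM and the cholesterol exporter Abcg1 at 39 CPM against 74.5 to 175 CPM. In fatty acid synthesis 1 of 25 genes was higher and 1 lower, in fatty acid oxidation 2 of 41 and 1, and among sphingolipid and phospholipid genes 0 of 39 and 2. Acsl3, an activator of fatty acids, had 22.9 CPM against 3.69 to 12 CPM, and the elongase Elovl7 33.5 CPM against 77.8 to 92.0 CPM. The fatty acid synthase Fasn had 478 CPM against 514 to 957 CPM and was not called.

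Of the iron genes named here, those for uptake were higher, while the 1 gene called lower, Ftl1, is a storage gene. The transferrin receptor Tfrc had 198 CPM against 60.9 to 106 CPM (median 88.7), and the ferrireductase Steap3 13.6 CPM against 2.55 to 4.72 CPM. The ferritin light chain gene Ftl1, one of the most abundant transcripts, had 3519 CPM against 6340 to 9830 CPM (median 7387). It has near-identical copies in the genome, which makes its value uncertain. Alad, an enzyme of haem synthesis, had 39.6 CPM against 4.85 to 21.3 CPM. Of 26 iron and haem genes, 5 were higher (19.2%, against 10.4% of all genes) and 1 lower (3.85%, against 8.13%).

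Redox genes were more often lower, although the median log2 fold was 0.04. Of 41 compared, 7 were called lower (17.1%, against 8.13% of all genes) and 2 higher (4.88%, against 10.4%). The glutathione transferase Gstm1, which belongs to a family of near copies, had 0.864 CPM against 4.70 to 28.8 CPM (median 17.9), while PMC-306 had 37.3 CPM. Gstt2 had 3.09 CPM against 14.7 ± 2.03 CPM (SD, n = 6), the oxidase subunit Ncf4 119 CPM against 293 ± 43.3 CPM (SD, n = 6) and the lipid peroxidase Gpx4 131 CPM against 276 ± 32.8 CPM (SD, n = 6). Thioredoxin (Txn1) was higher with 165 CPM against 56.9 to 68.4 CPM, and its inhibitor Txnip lower with 237 CPM against 389 to 672 CPM.

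Lysosomal genes had a median log2 fold of -0.37. Of 45 compared, 4 were called lower (8.89%, close to the 8.13% of all genes) and 3 higher (6.67%, against 10.4%). Gm2a (chromosome 11, 54988883 to 55003855), the activator protein of ganglioside breakdown, had 67.5 CPM in PMC-303 against 749 to 1849 CPM (median 1267), an 18.7-fold difference. PMC-306 had 383 CPM of Gm2a. Cathepsin D (Ctsd) had 1310 CPM against 3038 to 4849 CPM (median 4319). Summed over the list, PMC-303 had 7320 CPM and the primary cultures had at least 10700 CPM. Among NAD and vitamin genes 1 of 28 was higher (3.57%, against 10.4% of all genes) and 3 lower (10.7%, against 8.13%). Among polyamine and creatine genes 1 of 10 was called each way (10% and 10%). In the pentose phosphate pathway 0 of 10 were higher and 1 lower (10%). Several of these shares were close to those of all genes. The retinal reductase Dhrs3 had 1.77 CPM against 9.28 to 39.2 CPM, and the vitamin B12 carrier Tcn2 71.9 CPM against 159 to 231 CPM.

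**Figure D5:**
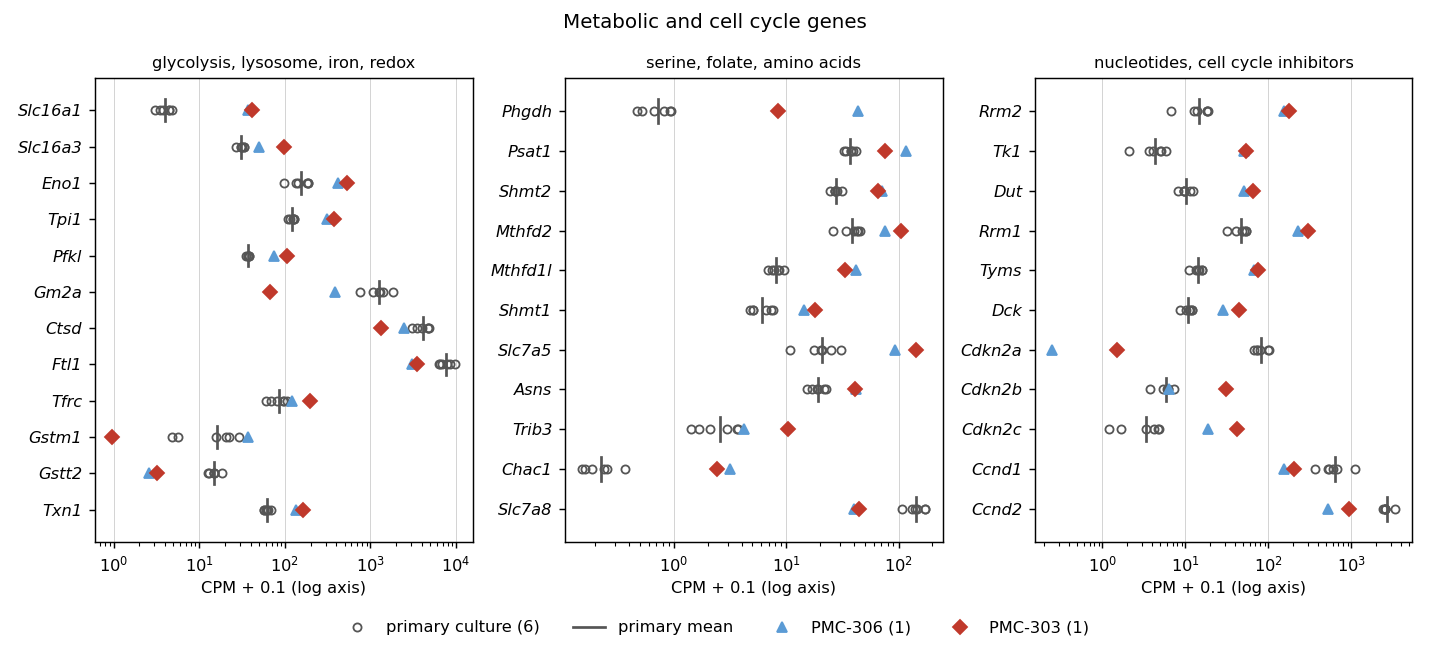
CPM + 0.1 on a log axis of metabolic and cell cycle genes in the 6 primary cultures (open circles, mean as a bar), PMC-303 (red diamond) and PMC-306 (blue triangle). The red diamond is to the right of all circles for Slc16a1, Phgdh, Slc7a5, Rrm2 and Tk1, and to the left of all circles for Gm2a, Ctsd, Ftl1, Slc7a8, Cdkn2a, Ccnd1 and Ccnd2.

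The inhibitors of cyclin-dependent kinases 4 and 6 went in opposite directions. Cdkn2a (chromosome 4, 89192708 to 89212890), which encodes INK4A and ARF, had 34 counts or 1.40 CPM in PMC-303, while the primary cultures had 67.0 to 103 CPM (median 76.0). Cdkn2b (INK4B) had 30.7 CPM against 3.69 to 7.13 CPM (median 6.06), and Cdkn2c (INK4C) 41.3 CPM against 1.10 to 4.69 CPM (median 3.68). The D cyclins Ccnd1 with 205 CPM against 370 to 1096 CPM and Ccnd2 with 940 CPM against 2437 to 3388 CPM were lower, and the pocket protein gene Rbl1 was higher with 91.1 CPM against 13.4 to 24.8 CPM. The chromosome 4 genes Mllt3 (76.1 CPM against 39.2 to 51.1 CPM) and Plaa (155 CPM against 102 to 130 CPM) were above every primary culture by less than 2-fold. Dennd4c on the same chromosome (133 CPM against 144 to 226 CPM) was below every primary culture, also by less than 2-fold. Of 27 genes of p53 and its targets, 5 were lower (18.5%, against 8.13% of all genes) and 1 higher (3.7%, against 10.4%), with a median log2 fold of -0.54.

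The 10 largest differences upwards among genes with at least 10 CPM included several genes that were at or near 0 in the primary cultures. The POU homeobox factor Pou3f2, known from neurons, had 758 counts in PMC-303 and 9 counts over all 6 primary libraries, a ratio of 410 with a 95% interval from 215 to 900. The chemokine receptor Ccr8 had 313 and 9 counts, a ratio of 169 with an interval from 88.0 to 374, and the TGF-β family ligand Gdf3 385 and 24 counts, a ratio of 78.1 with an interval from 51.7 to 123. Irag1, a substrate of cGMP-dependent kinase at the IP3 receptor, reached 311 CPM against 0.835 to 13.3 CPM. Tpm4, a tropomyosin, had 69.9 CPM against 0.176 to 3.37 CPM, the membrane glycoprotein Gpm6a 82.9 CPM against 0 to 12.1 CPM, Aif1l 11.3 CPM against at most 0.643 CPM and the splicing factor Rbfox1 13.5 CPM against at most 0.791 CPM. Syt9 and Cd24a were described above. PMC-306 had 39.2 CPM of Pou3f2, 38.6 CPM of Ccr8 and 153 CPM of Gpm6a, but 0.0491 CPM of Gdf3 and 0 counts of Rbfox1. Without the third female culture, the log2 folds of Irag1 and Gpm6a were 6.83 and 6.77 instead of 6.11 and 4.96.

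The 10 largest differences downwards included 4 genes with 0 counts. The amyloid precursor protein gene App had 0 counts in PMC-303 and 1.85 to 51 CPM in the primary cultures, a level at least 210-fold lower, and PMC-306 had 0 counts as well. The neurturin receptor Gfra2 was at least 99.7-fold lower, with 2.16 to 57.2 CPM in the primary cultures, and its log2 fold of -6.96 was -5.10 without the third male culture. A U3 small nucleolar RNA gene on chromosome 11 and 1 of the overlapping records named Pakap also had 0 counts, at least 504-fold and 115-fold lower, but both share reads with near-identical or overlapping genes and are uncertain. The receptor for apolipoprotein B, Apobr, had 0.412 CPM against 76.6 to 166 CPM, and the Ly49 family receptor Klra2, a member of a multigene family, 0.576 CPM against 24.7 to 274 CPM. The guanine nucleotide exchange factor Arhgef3 had 1 count, 0.208% of the primary mean with a 95% Poisson interval from 0.00526% to 1.16%. Ctsg, Mcpt4 and Plcb4 complete this group. Apobr and Klra2 were at or below the share that the Y-linked transcripts had.

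Of the 2333 genes called in PMC-303, 1380 were also called in the same direction in PMC-306, 427 were within the primary range there and 61 were called in the opposite direction. The share of all genes called in PMC-306 was not set beside these counts, so that they do not tell whether the overlap is large. The 2 lines share their primary cultures, and the difference between them was not tested with 1 library each. Along the chromosomes, the median log2 fold of PMC-303 was 0.22 over the 698 genes of chromosome 8 and between -0.07 and 0.13 on the other autosomes. Ier2, Junb, Klf2, Cbfb, Maf, Tpm4, Gpm6a, Gpt2, Slc7a5 and Plcg2 lie on chromosome 8. All of them except Klf2 and Maf, which were called lower, and Plcg2, which was within the primary range, were called higher. The differences of the called genes were larger than this median, and its part in them was not tested.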

How the data were processed

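RNA-seq of 8 cultures was used, grouped by the labels. Per the labels, the libraries were stranded and made from total RNA. The authors trimmed reads with Trim Galore 0.6.7, aligned them to GRCm39 with STAR 2.7.9a and quantified with Salmon 1.5.2. The deposited gene and transcript tables hold estimated counts, not normalized, and TPM values scaled by the authors for length and depth. A spreadsheet program had rewritten 3.37% of the gene count cells and 20.8% of the gene TPM cells. These were restored, after which 99.7% of gene counts lay within 0.2 counts of their transcripts' sum (largest difference 1.53). Transcript TPM was not used here, and 0 columns lacked a sample. Because PMC-303 has 1 library and the tables had been rewritten, no count model was applied. TMM factors were computed over all 8 libraries in Python 3.11.15 with numpy 2.4.6 and pandas 2.3.3, and the fold and range rule was tested on simulated data. Coordinates come from GENCODE M39, in which 98.9% of genes were found, and promoter sequence was read from the GRCm39 genome.

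The 42 gene lists, the members and the motifs were chosen with earlier results of these data known. Named genes include the list members with the largest folds at 10 CPM or more, key receptors and enzymes, and genes that the study measured. They also include the 10 largest differences in each direction and some members under 10 CPM, such as Egr2, Egr3, Pycr1 and Gpt2. Some members of the lists are counted but not reported by name here. Values from at most 3 counts are given with exact Poisson intervals, those against few primary counts with intervals from the exact binomial distribution. The primary cultures are biological replicates per the labels. Other scalings, TPM, offsets, filters and reference cultures were tried, and each primary culture was left out in turn.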

Additional observations from a re-analysis of the deposited data

Results flagged for a closer look

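Among 199 named genes, 22 had 1 primary culture far from the other 5. Genes under 1 CPM in every primary culture were not searched, so that chance alone gives at most about 9.95 (1 in 20). The second female culture stood highest for Tpsg1 (709 CPM, next 310), Plcb4 (54.3, next 23.7), Ccnd2 (3388, next 2560), Lat (338, next 262), Pkm (1586, next 1265) and Lyz2 (18, next 5.72). The third female culture was highest for Ctsc (378 CPM, next 158), Ext1 (14.9, next 8.92), Mitf (243, next 214), Pik3r6 (147, next 69.5), Il5ra (11.7, next 4.13), Rnf43 (24.3, next 14.8), Irag1 (13.3, next 4.5) and Gpm6a (12.1, next 2.34). The first female culture was highest for Itgb2 (56.7 CPM, next 32.7), Abcg1 (175, next 107) and Ighm (12.5, next 4.43). The third male culture was highest for Hdc (18.1 CPM, next 10.7), Klf2 (44.7, next 22.6) and Gfra2 (57.2, next 5.72) and lowest for Mllt3 (39.2, next 47.2), and the second male culture was lowest for Plcg2 (143, next 151).

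PMC-303 and PMC-306 lay on opposite sides of the primary range for Adgre1 (log2 folds of -2.73, or -0.95 against the primary median, and 4.86), Irak3 (1.68 and -2.37) and Gstm1 (-4.08 and 1.20), and these differences were not tested. The 4 Y-linked genes, which the autosomal comparison does not use, had 102 counts in PMC-303, 1.25% of the mean of the male cultures.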

How the results depend on the processing

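No paired analysis was possible because PMC-303 has 1 library. Of 160 named genes that were called, 145 kept the call in every alternative run that compared them, 15 lost it in at least 1 and 0 changed sign. Genes under 10 CPM or with a restored cell were not compared in the runs that leave such genes out. Calls were lost by 11 genes with TPM and by 9 with total counts, nearly all of them close to 2-fold. With an offset of 1 CPM, 449 genes differed at least 5-fold (319 higher, 130 lower). With at least 10 CPM, where fewer genes are compared, 1209 were called (805 higher, 404 lower), 446 at least 5-fold (331 higher, 115 lower), and 25 signalling genes were called higher. Without a filter 1561 genes were called lower. Leaving out genes with a restored cell left 25 signalling and 18 metabolic genes called lower. Leaving out each primary culture in turn gave 2308 to 2420 genes called (1304 to 1354 higher, 993 to 1066 lower) and 835 to 879 at least 5-fold. Of the calls 56.2% were higher, against 65.7% with TPM, 61.9% with total counts and 66.6% at 10 CPM, while the median log2 fold moved from 0.02 to 0.14 with TPM and 0.12 with total counts. Rab37 was not called without the first male culture and Txnip without the second. With 1 library, genes at or under 3 counts give a bound or an interval only.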

Other observations

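Replication-dependent histone genes, taken by their symbols, were not part of the lists above. Of 60 compared, 57 were called higher and 0 lower, against 10.4% and 8.13% of all genes, and the median log2 fold was 3.5. Summed, they reached 6091 CPM in PMC-303, while the primary cultures ran from 640 to 1009 CPM (median 881). Of these genes 51 lie on chromosome 13, where 19.2% of 553 genes were called higher, and without the histone genes 11.6% of the genes of this chromosome were. Many of these genes are near copies, so that single values are uncertain. Their transcripts are made in S phase and mostly lack a poly(A) tail, and total RNA libraries include them.

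Another 3 genes were chosen after their values were seen. Kcnq1ot1, a long noncoding RNA that runs antisense through an imprinted region of chromosome 7, had 2.68 CPM in PMC-303 (65 counts) against 217 to 385 CPM (median 291) in the primary cultures and 185 CPM in PMC-306. It was at 0.891% of the primary mean, below the share that the Y-linked transcripts had. The fractalkine receptor gene Cx3cr1 had 447 CPM in PMC-303 against 20.1 to 79.6 CPM (median 40.3), and 123 CPM in PMC-306. Ly6a, which encodes the stem cell antigen SCA-1, had 206 CPM against 946 to 2001 CPM (median 1703), and 584 CPM in PMC-306.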
